A study of Rattus norvegicus with 11 samples.

Results

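The genes described here are those of the phagocyte NADPH oxidase and of the enzymes that dispose of its products, namely Cybb, Cyba, Ncf1, Ncf4, Sod1, Sod2, Cat and Gpx1. They were chosen by symbol, and all 8 were found once each among the 32623 genes of the table. The oxidase sits dormant in neutrophils, monocytes and macrophages until its cytosolic parts join the membrane-bound pair, and then passes electrons from NADPH to oxygen to make superoxide. Superoxide dismutases convert superoxide into hydrogen peroxide, which catalase and glutathione peroxidase break down. The oxidase is best known for killing microbes, and its Ncf1 subunit is a known determinant of arthritis severity in rodents.

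RNA of white blood cells (WBCs) was sequenced from 3 normal healthy controls and from 4 rats with collagen-induced arthritis (CIA), all male Wistar rats that were 7 weeks old at the start by the methods. CIA was raised with bovine type II collagen in incomplete Freund's adjuvant and boosted on day 7. Each CIA rat gave a Nampt++ sample on about day 8 and a Nampt+ sample on about day 14, which the authors told apart by their own PCR of Nampt, so stage of disease and Nampt status cannot be told apart. Equal numbers in these groups mark the same animal. WBCs were what remained of peripheral blood after red cell lysis. A deposited extraction note speaks of retinas, in conflict with the sample sources and the methods. In a mixed sample of this kind, fewer cells of a type and less RNA per cell cannot be told apart.

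Total counts per sample lay between 65340027 and 85819418. All 12 neutrophil markers were found, at least 11 of them above 0 in each sample, and their mean log2(FPKM + 1) ran from 4.39 to 6.84 in controls, from 4.88 to 7.44 in Nampt++ samples and from 5.28 to 7.07 in Nampt+ samples. Of 10 monocyte markers, Cd163 was at 0 in all 11 samples and the other 9 were above 0. Haemoglobin genes, a sign of red cell RNA, took 15.2% to 28.8% of counts in controls, 6.43% to 34.9% in Nampt++ samples and 13.9% to 39.8% in Nampt+ samples. Nampt++ sample 2, with 34.9% haemoglobin and low neutrophil markers, stood apart from the other 3 of its group, and control 2 stood apart from the other 2 controls for several of the genes below.

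Cybb, on chromosome X between 14578264 and 14612547 as the table lists it, encodes gp91phox, the catalytic membrane subunit that carries the electrons. FPKM (fragments per kilobase of transcript, scaled to the sample's total) is a level scaled by transcript length, so it may be compared between genes. Cybb stood at 32.2, 46.5 and 58.1 FPKM in controls 1 to 3, at 37.5, 51.0, 58.0 and 108 FPKM in Nampt++ samples 1 to 4, and at 47.3, 22.6, 52.7 and 62.6 FPKM in Nampt+ samples 1 to 4. Nampt++ sample 4 was the highest and Nampt+ sample 2 the lowest, and the groups overlapped. The group means were 45.6 ± 13.004 (SD, n = 3), 63.7 ± 31.0 (SD, n = 4) and 46.3 ± 17.0 (SD, n = 4).

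Cyba, on chromosome 19 between 55249616 and 55257876, encodes p22phox, the partner that holds gp91phox in the membrane. Its levels were 160.5, 234 and 147 FPKM in controls, 395, 164, 257 and 307 FPKM in Nampt++ samples, and 156, 171, 169 and 251.2 FPKM in Nampt+ samples. Cyba was thus near the level of the controls in Nampt++ sample 2 and above all controls in the other 3 Nampt++ samples. The means were 181 ± 47.1 (SD, n = 3), 281 ± 96.5 (SD, n = 4) and 187 ± 43.4 (SD, n = 4) FPKM.

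Ncf1, on chromosome 12 between 25497104 and 25506300, encodes p47phox, the cytosolic organizer that is phosphorylated when the cell is stimulated. It stood at 47.1, 88.4 and 56.8 FPKM in controls, at 119.8, 33.1, 111 and 98.6 FPKM in Nampt++ samples, and at 39.6, 84.9, 74.2 and 87.0 FPKM in Nampt+ samples. The lowest of all samples was Nampt++ sample 2 and the next Nampt+ sample 1, while the other 3 Nampt++ samples were the highest of all.

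Ncf4, on chromosome 7 between 119482272 and 119499425, encodes p40phox, which binds a membrane phosphoinositide and helps the assembled complex at the phagosome. Its levels were 150.3, 417 and 93.3 FPKM in controls, 654, 100.2, 464 and 374 FPKM in Nampt++ samples, and 118, 384, 248 and 323 FPKM in Nampt+ samples. Ncf4 spread most of the 8 genes, with a ratio of 7.01 between the highest and the lowest of the 11 samples. Control 2 was above all Nampt+ samples, and controls 1 and 3 lay near the low end of both CIA groups.

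The active complex also takes up a small GTPase. Rac2, the haematopoietic GTPase of the complex, ranged from 409.5 to 871 FPKM, and Rac1, its widely expressed relative, from 70.0 to 178 FPKM. Rac2 lies 284424 bases beyond the end of Ncf4 on chromosome 7, on the opposite strand. No other oxidase of the family was at a comparable level. Of 9 listed genes for other oxidases and their partner proteins, Nox1 was the highest, at 0.305 to 3.23 FPKM, and Nox3 and Nox4 were at 0 in all samples.

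Sod1, on chromosome 11 between 30363280 and 30368862, encodes the cytosolic copper and zinc dismutase. It stood at 129, 149 and 299 FPKM in controls, at 168, 169, 264 and 300.3 FPKM in Nampt++ samples, and at 159, 116, 258 and 192 FPKM in Nampt+ samples. The groups covered much the same range, with control 3 as high as any Nampt++ sample but sample 4.

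Sod2, on chromosome 1 between 47914759 and 47921587, encodes the mitochondrial manganese dismutase, a known target of inflammatory signals. Its levels were 301, 1019 and 285 FPKM in controls, 1068, 286, 1089.7 and 1087 FPKM in Nampt++ samples, and 360.2, 645, 396 and 523 FPKM in Nampt+ samples. Nampt++ samples 1, 3 and 4 and control 2 thus stood at about the same high level, and Nampt++ sample 2 lay with controls 1 and 3 at the low end. Every Nampt+ sample lay between these.

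Cat, on chromosome 3 between 93379874 and 93412058, encodes catalase, an enzyme abundant in red cells. Its mean was the lowest of the 8 in each group, though it exceeded Ncf1 in Nampt++ sample 2 and Cybb in Nampt+ sample 2. It stood at 24.5, 17.9 and 29.9 FPKM in controls, at 12.1, 37.3, 15.0 and 14.1 FPKM in Nampt++ samples, and at 35.7, 31.5, 16.3 and 19.8 FPKM in Nampt+ samples. Nampt++ samples 1, 3 and 4 were the 3 lowest of all, and Nampt++ sample 2 was the highest. Gpx1, on chromosome 8 between 117117430 and 117118522, encodes the main cytosolic glutathione peroxidase. Its levels were 652, 906 and 626 FPKM in controls, 1331, 1239, 983 and 814 FPKM in Nampt++ samples, and 1055, 1146, 611 and 828 FPKM in Nampt+ samples. Gpx1 overlapped between all groups, with Nampt++ sample 1 highest and Nampt+ sample 3 lowest.

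**Figure D1:**
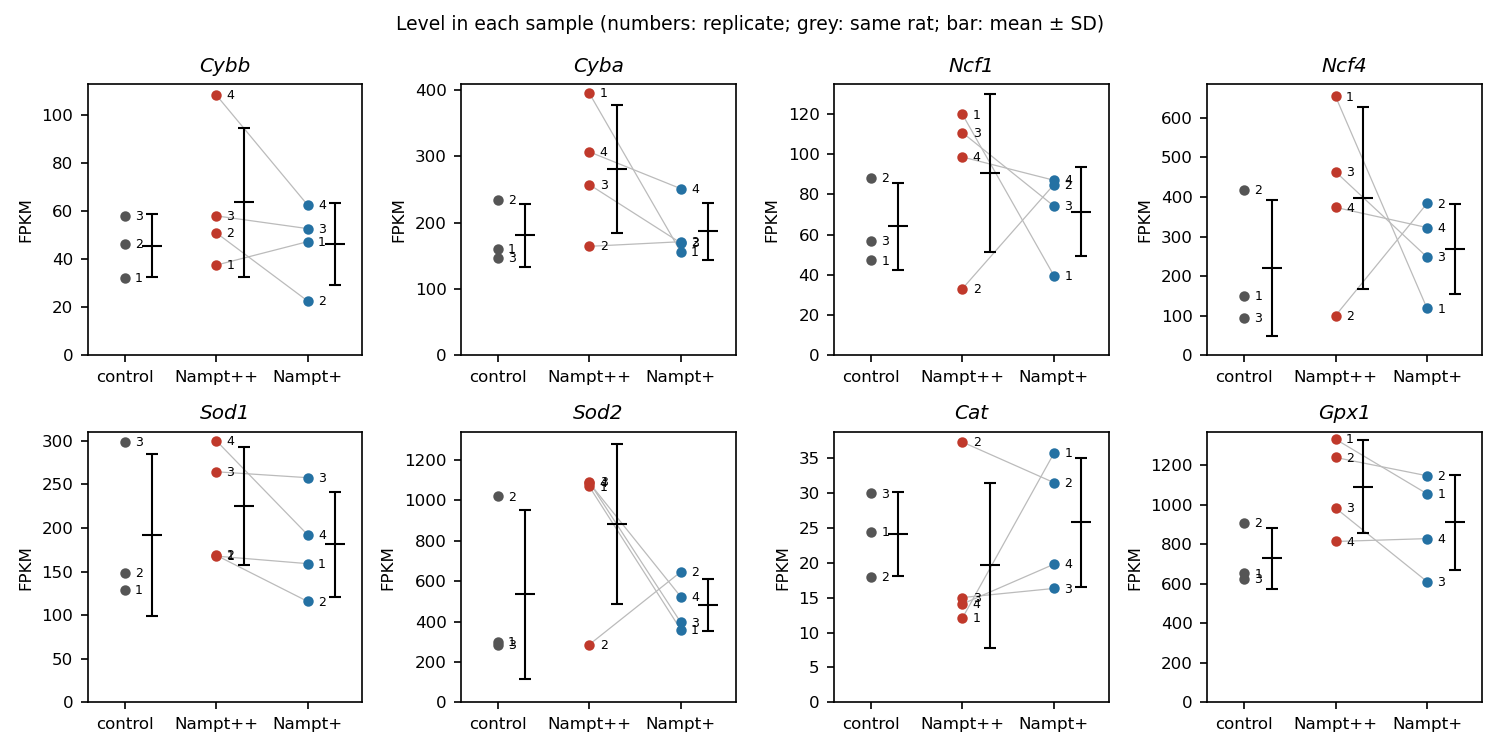
Level in FPKM of the 8 genes in each sample of the control, Nampt++ and Nampt+ groups, with replicate numbers beside the points, grey lines joining the samples of a rat, and bars for the mean ± SD. Nampt++ sample 2 stands low for Ncf1, Ncf4 and Sod2 and high for Cat, and no gene separates the groups.

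In order of mean level over the 11 samples, the genes ran from Gpx1 (926 FPKM, rank 99 among all genes) and Sod2 (642 FPKM, rank 139) through Ncf4 (302 FPKM), Cyba (219 FPKM), Sod1 (200.2 FPKM) and Ncf1 (76.4 FPKM) to Cybb (52.4 FPKM) and Cat (23.1 FPKM, rank 2586). Neighbours in this order overlapped in most cases. Sod2 exceeded Ncf4 in every sample of each group, but the ranges of the pair overlapped. Sod1 and Cyba could not be put in order, since Sod1 exceeded Cyba in 1 of 3 controls.

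Promoter sequences of 7 of the 8 genes were found in RefSeq, on GRCr8, from 250 bases before the start to 50 after. The 3 shown belong to Ncf1 and Sod2, whose levels moved together over the samples, and to Cat, which moved against them. Each reads 5′ to 3′ in the direction of the gene. Ncf1 is on the + strand at chr12:28121635-28121934, Sod2 on the - strand at chr1:50050119-50050418 and Cat on the - strand at chr3:110329477-110329776. Capitals mark matches on either strand to TGACNNNGC (the antioxidant response element core) and to the PU.1 core, which reads GAGGAA. All motifs were chosen after the levels were seen, and matches may overlap.
Ncf1: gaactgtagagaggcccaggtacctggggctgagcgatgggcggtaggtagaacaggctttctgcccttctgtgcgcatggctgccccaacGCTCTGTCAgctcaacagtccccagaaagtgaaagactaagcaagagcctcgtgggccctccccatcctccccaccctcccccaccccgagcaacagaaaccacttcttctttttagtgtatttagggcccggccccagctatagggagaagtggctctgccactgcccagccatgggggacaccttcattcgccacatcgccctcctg
Sod2: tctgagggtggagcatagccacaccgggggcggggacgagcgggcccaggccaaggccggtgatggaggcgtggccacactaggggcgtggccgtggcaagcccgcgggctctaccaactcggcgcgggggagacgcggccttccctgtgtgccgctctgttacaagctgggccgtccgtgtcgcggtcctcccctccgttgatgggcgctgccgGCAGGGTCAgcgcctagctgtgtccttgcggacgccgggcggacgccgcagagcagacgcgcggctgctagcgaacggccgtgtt
Cat: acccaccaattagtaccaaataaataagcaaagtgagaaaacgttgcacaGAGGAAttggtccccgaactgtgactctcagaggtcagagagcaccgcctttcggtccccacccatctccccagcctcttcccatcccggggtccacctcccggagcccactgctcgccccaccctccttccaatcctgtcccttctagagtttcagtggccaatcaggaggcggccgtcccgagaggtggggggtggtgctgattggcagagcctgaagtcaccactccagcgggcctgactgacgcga
Ncf1 and Sod2 each held 1 match to the antioxidant response element core, which 12.1% of the 33469 full-length promoters in that RefSeq set held. That set is not limited to the genes measured here. Cat held 1 match to the PU.1 letters, which 27.6% of promoters held, and the erythroid motif AGATAA, held by 11.6% and also searched on both strands, was in none of the 3. Of the promoters not shown, that of Cybb held 1 match to the PU.1 letters, and the others held neither of the marked motifs. An NF-kappa B consensus was searched too and is not marked, as 47.3% of promoters held it. A match is only a string of letters in this window.

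The Nampt+ samples were first compared with the Nampt++ samples of the same rats, which asks how the genes stood as the samples passed from Nampt++ to Nampt+ status. None of the 8 genes passed a ratio of mean FPKM over 2 or under 0.5 with an unadjusted p under 0.05 by edgeR's quasi-likelihood test, where 0.642% of all genes tested did, and in none did the groups fail to overlap, where 0.41% of all genes did. None had an unadjusted p under 0.05 by edgeR or by DESeq2. These tests and the exact permutation below took the samples as unpaired. With the rat as a replicate block none of the 8 was called, and the smallest unadjusted edgeR p was 0.121, for Cat. The fitted change was lower in Nampt+ for 7 genes and higher for Cat, with a median log2 fold change of -0.26 beside -0.00021 over all genes. Sod2 had the largest fitted fall, a log2 fold change of -0.58 (SE 0.4998, edgeR's adjusted p = 0.99956, exact permutation p = 0.229), and Cybb the smallest unadjusted edgeR p, of 0.163, with a log2 fold change of -0.43 (SE 0.282). Cat had a log2 fold change of 0.55 (SE 0.556, exact permutation p = 0.286). A p that misses the threshold does not show that levels were equal. Single samples decided how far some genes came. Without Nampt+ sample 2, Sod2 passed both thresholds, with a log2 fold change of -1.16, an unadjusted edgeR p of 0.0231 and an exact permutation p of 0.229. Cyba then had a log2 fold change of -0.68, with an unadjusted edgeR p of 0.0357 and an exact permutation p of 0.2, short of the fold. Without Nampt++ sample 2, Sod2 had a log2 fold change of -0.85, an unadjusted edgeR p of 0.0953 and an exact permutation p of 0.0286, the smallest that 4 against 3 samples can give, and was not called. In the same samples Cat was 1.21 higher on the log2 scale, with an unadjusted edgeR p of 0.0339 and an exact permutation p of 0.0571, and did not pass the ratio of mean FPKM. Without Nampt++ sample 1, Cybb fell by 0.63 on the log2 scale, with an unadjusted edgeR p of 0.0211 and an exact permutation p of 0.257.

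Within rats, Sod1 was lower in the Nampt+ sample in 4 of 4 rats, by 0.08, 0.54, 0.04 and 0.64 on the log2(FPKM + 1) scale, an exact sign-flip p of 0.125 that is the smallest 4 rats can give. Rac1 was also lower in 4 of 4 rats, with the same exact p of 0.125. Cybb, Cyba, Ncf1, Ncf4, Sod2 and Gpx1 were lower in 3 of 4 rats and Cat was higher in 3 of 4. Rat 2 was the exception for Cyba, Ncf1, Ncf4, Sod2 and Cat, rat 1 for Cybb and rat 4 for Gpx1. In rat 2 the Nampt+ sample had 3.83 times the Ncf4 of the Nampt++ sample and 2.26 times its Sod2, while in rat 1 the Nampt++ sample had 5.54 times the Ncf4 of the Nampt+ sample and 2.96 times its Sod2. The exact sign-flip p for the 8 genes ran from 0.125 to 0.625, and none could have passed 0.05. All these within-rat values use FPKM scaled to totals that include haemoglobin reads. Haemoglobin took 6.43% of counts in Nampt++ sample 1 but 24.3% in Nampt+ sample 1. Its share was also higher in the Nampt+ sample for rats 2 and 4, and lower for rat 3. A higher share by itself lowers the FPKM of other genes. Whether the directions within rats, such as the small fall of Sod1 in rat 1, hold after rescaling was not tested. Over genes, the deviations of Nampt++ sample 2 from its group mean correlated at 0.62 with those of Nampt+ sample 1, the highest of the 16 pairs of Nampt++ and Nampt+ samples, while the samples labelled as rats 1 and 2 gave -0.27 and -0.24 with their own partners. The pairing of these samples rests on the labels alone, and the values within rats 1 and 2 depend on it.

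Nampt++ samples were next compared with the controls, which asks how the genes stood early in CIA. Again none of the 8 genes was called, where 0.686% of all genes were, and in none were the groups free of overlap, where 1.1% of all genes were. None had an unadjusted p under 0.05 by edgeR or DESeq2. The fitted change was higher in Nampt++ for 7 genes and lower for Cat, with a median log2 fold change of 0.44 beside 0.0018 over all genes. Ncf4 had the largest, a log2 fold change of 0.58 (SE 0.750, exact permutation p = 0.343), and Gpx1 the smallest unadjusted edgeR p, of 0.219, with a log2 fold change of 0.50 (SE 0.372, edgeR's adjusted p = 0.99992). Control 2 decided 2 of these results. Without it Sod2 had a log2 fold change of 1.68, with an unadjusted edgeR p of 0.0154 and an exact permutation p of 0.333, and passed both thresholds. Ncf4 did so too, with a log2 fold change of 1.76, an unadjusted edgeR p of 0.0382 and an exact permutation p of 0.267. Cyba and Gpx1 then had log2 fold changes of 0.97 and 0.92, unadjusted edgeR p of 0.0188 and 0.0318 and the same exact permutation p of 0.133, and missed the fold. Without Nampt++ sample 2, Cat fell by 0.88 on the log2 scale, with an unadjusted edgeR p of 0.0024 and an exact permutation p of 0.1, the smallest that 3 against 3 samples can give.

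Nampt+ samples were last compared with the controls, later in CIA. None of the 8 genes was called, where 0.497% of all genes were, and none was free of overlap, where 0.444% of all genes were. None had an unadjusted p under 0.05 by edgeR or DESeq2. The fitted change was higher for 5 genes and lower for 3, with a median log2 fold change of 0.14. The smallest p was 0.415 for Gpx1 by edgeR's quasi-likelihood test, with a log2 fold change of 0.44 (SE 0.516). This comparison and the preceding one share the 3 controls, so their directions are not independent. The sign of 8 of 8 genes here changed when some single sample was left out, and Sod2 ran from -0.73 without Nampt+ sample 2 to 1.09 without control 2.

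**Figure D2:**
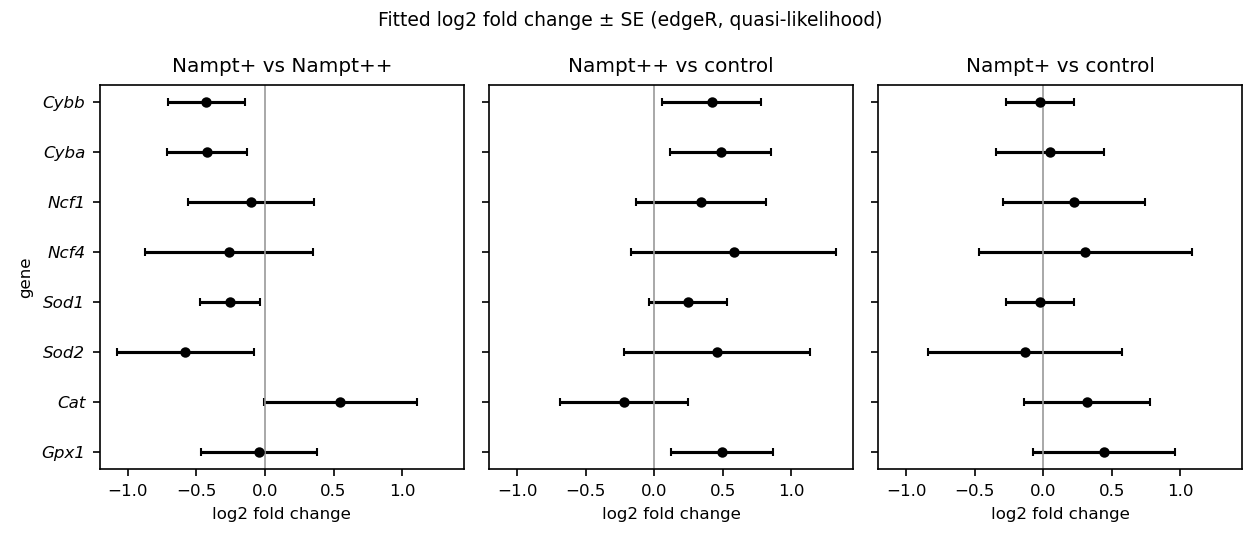
Fitted log2 fold change ± SE by edgeR's quasi-likelihood test for the 8 genes in the 3 comparisons, with a grey line at 0. The largest fall in Nampt+ against Nampt++ is Sod2 at -0.58, and no gene was called.

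The wider gene lists held 78 further genes of the oxidase's family, its activation, peroxide removal, thioredoxin, glutathione, Nrf2 targets and NADPH supply, of which 76 were found. In Nampt+ against Nampt++, 62 of these were tested, 28 fitted higher and 34 lower, and 2 were called, both lower, where 0.642% of all genes tested were called. Txnrd1, the thioredoxin reductase, stood at 60.4, 26.2, 55.8 and 108 FPKM in Nampt++ samples and at 16.8, 25.99, 28.3 and 27.9 FPKM in Nampt+ samples. Nampt++ sample 2 lay among the Nampt+ samples, so the groups overlapped. It fell by 1.11 on the log2 scale (SE 0.397), with an unadjusted edgeR p of 0.0210, an adjusted p of 0.99956 and an exact permutation p of 0.0857. Hmox1, which breaks down haem, stood at 7.77, 6.08, 35.1 and 66.1 FPKM in Nampt++ samples and at 10.2, 7.03, 11.2 and 7.44 FPKM in Nampt+ samples, so its fall rested on Nampt++ samples 3 and 4. It fell by 1.504 on the log2 scale, with an unadjusted edgeR p of 0.0482, an adjusted p of 0.99956 and an exact permutation p of 0.371. Without Nampt++ sample 4, Hmox1 fell by 0.85 and Txnrd1 by 0.84 on the log2 scale, with exact permutation p of 0.771 and 0.0857, and neither was called. With the rat as a replicate block neither was called either, with log2 fold changes of -0.94 and -1.14 and unadjusted edgeR p of 0.271 and 0.0520 for Hmox1 and Txnrd1. In the comparisons with controls none of the wider lists was called, where 0.686% and 0.497% of all genes were, with 46 of 63 fitted higher in Nampt++ samples and 43 of 62 in Nampt+ samples. Their median log2 fold changes were 0.18 and 0.09, beside 0.0018 and -0.0027 over all genes. Both comparisons share the 3 controls, so these directions are not independent, and the lists were not tested as sets. Ccs, the copper chaperone of Sod1, had an unadjusted p of 0.0492 by edgeR in Nampt++ against controls but missed the fold, and was the only one under 0.05. Of the most abundant gene in each list, Fth1, the ferritin heavy chain, was highest at 4526 to 12102 FPKM, while Rac2, Arhgdib, Glrx, Gstp1 and Taldo1 lay between 109.8 and 1095 FPKM.

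The 8 genes did not vary as a single group over the samples. Over the 11 samples, which share libraries and haemoglobin load, Ncf1 and Ncf4 had a Pearson r of 0.93, Ncf4 and Sod2 of 0.92 and Cyba and Sod2 of 0.85. Cat ran against them, with r of -0.84 to Ncf1 and to Cyba. Cybb, the catalytic subunit, had lower r to the other subunits, of 0.31 to Cyba, 0.13 to Ncf1, -0.03 to Ncf4, 0.27 to Rac2 and 0.48 to Rac1, and of the 8 was nearest to Sod1, with r of 0.83. With FPKM rescaled to reads outside haemoglobin genes, its r turned to -0.06 for Cyba, -0.19 for Ncf1 and -0.53 for Rac2, and was 0.73 for Sod1. The r of Cat was then -0.59 to Ncf1 and -0.57 to Cyba. These are descriptions over 11 samples, of which 8 come from 4 rats.

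The genes nearest to each in pattern, of 4930 with a mean FPKM of at least 10, were also of different kinds. For Cybb they were Cd68 (r = 0.96), a marker of monocytes and macrophages, S100a10 (0.96) and Plagl2 (0.95). For Ncf4 they were AC128859 (0.99), Clec7a (0.99), the beta-glucan receptor dectin-1, and S100a11 (0.99). Cyba was nearest to Vamp8 (0.99), Cfp (0.98), which encodes properdin, and Dstn (0.97). Ncf1 was nearest to Atp6v1c1 (0.98), a subunit of the proton pump, Sbds (0.97) and AABR07035955 (0.97). Sod2 was nearest to Marcks (0.98), Lrrc25 (0.97) and Rab11fip1 (0.97), and Sod1 to Ube2n (0.97), Nucks1 (0.96) and Tubgcp3 (0.95). Cat was nearest to Ube2o (0.95), Hemgn (0.92) and Urod (0.92), the last a haem synthesis enzyme. Gpx1 had the weakest likeness, to Psenen (0.89), Lyc2 (0.81) and Fam214b (0.81).

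**Figure D3:**
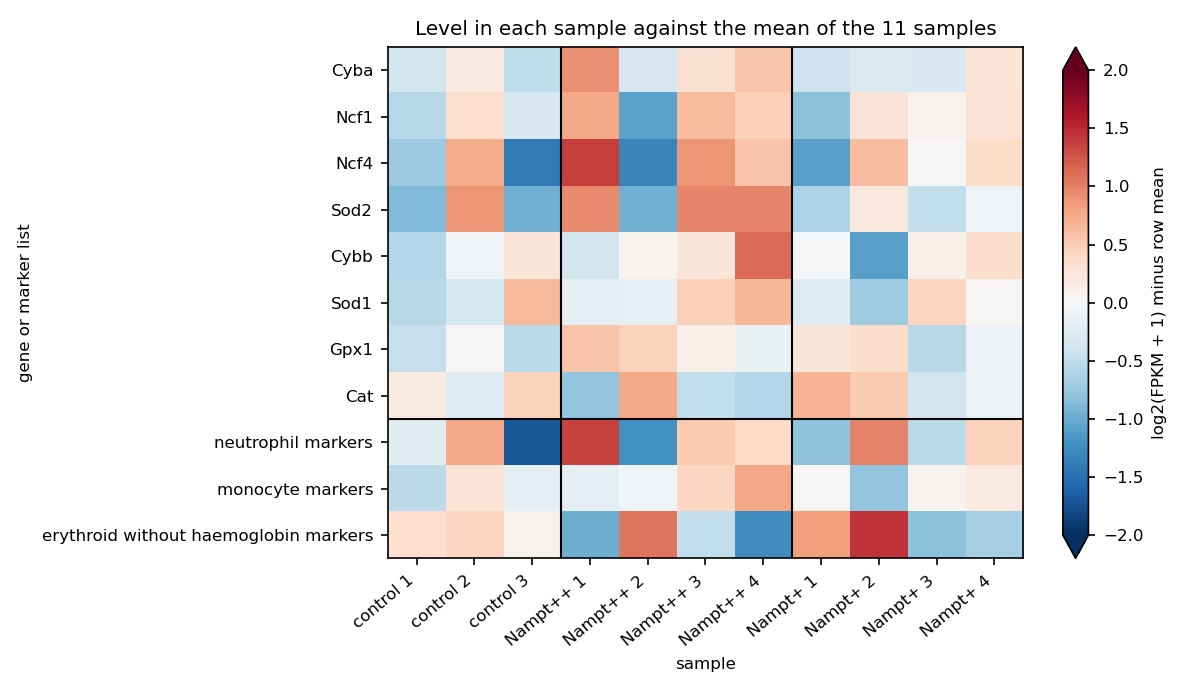
Level of each gene and of 3 marker lists in the 11 samples as log2(FPKM + 1) minus the row mean, red above and blue below, with lines between the control, Nampt++ and Nampt+ samples. Ncf1, Ncf4 and Sod2 are high and low in much the same samples as the neutrophil markers, while Cybb is lowest in Nampt+ sample 2, where these markers are high.

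The relation of each gene to the neutrophil markers and to the haemoglobin share was tested over 7 rats at a time, controls with the samples of a single CIA group, in 32 relations. Ncf4 followed the neutrophil markers in controls and Nampt++ samples, with r of 0.97 (exact permutation p = 0.000595, adjusted p = 0.0159) and rho of 0.96 (exact permutation p = 0.00278, adjusted p = 0.0444). In controls and Nampt+ samples its r was 0.92 (exact permutation p = 0.00456, adjusted p = 0.0365) and its rho 0.93 (exact permutation p = 0.00675, adjusted p = 0.072). Sod2 followed the markers in controls and Nampt++ samples, with r of 0.88 (exact permutation p = 0.00655, adjusted p = 0.0419) and rho of 0.71 (exact permutation p = 0.0881), and Cat ran against them there, with r of -0.91 (exact permutation p = 0.00417, adjusted p = 0.0365) and rho of -0.82 (exact permutation p = 0.0341, adjusted p = 0.137). With Nampt+ in place of Nampt++ samples, Sod2 had r of 0.83 (exact permutation p = 0.0220, adjusted p = 0.0881) and Cat of -0.30 (exact permutation p = 0.502). Against the haemoglobin share in controls and Nampt++ samples, Cat had r of 0.70 (exact permutation p = 0.093, adjusted p = 0.216). In controls and Nampt+ samples its r to that share was 0.34 (exact permutation p = 0.453). Cybb ran against the haemoglobin share in controls and Nampt+ samples, with r of -0.94 (exact permutation p = 0.000992, adjusted p = 0.0159) and rho of -0.96 (exact permutation p = 0.00278, adjusted p = 0.0444). Its r in controls and Nampt++ samples was -0.415 (exact permutation p = 0.372). Of all 32 relations 5 had an adjusted p under 0.05 for r, those of Ncf4 in both sets and of Sod2, Cat and Cybb in a single set. Leaving out the 2 samples farthest from the median left 5 samples, in which r was 0.93 and 0.86 for Ncf4, 0.75 for Sod2, -0.82 for Cat and -0.78 for Cybb, none with an adjusted p under 0.05. With 5 samples even the smallest exact permutation p would not pass for a single relation after adjustment over 32. This step therefore cannot show that a relation was lost. FPKM is scaled to a sample total that includes haemoglobin reads, so a higher haemoglobin share by itself lowers the FPKM of other genes. Rescaled to reads outside haemoglobin genes, Cybb had an r of -0.86 to the share in controls and Nampt+ samples (exact permutation p = 0.00714, adjusted p = 0.0327). Its r in controls and Nampt++ samples was then -0.06 (exact permutation p = 0.879). So rescaled, Cat no longer passed against the neutrophil markers in controls and Nampt++ samples, with r of -0.74 (exact permutation p = 0.0601, adjusted p = 0.16). Its rescaled r to the haemoglobin share in these samples was 0.82 (exact permutation p = 0.031, adjusted p = 0.0895). In controls and Nampt+ samples that r was 0.62 (exact permutation p = 0.138). Cyba, so rescaled, passed against the neutrophil markers in both sets, each with an adjusted exact permutation p of 0.0327. Its r was 0.91 with Nampt++ and 0.92 with Nampt+ samples, where before rescaling it was 0.88 and 0.69. Sod2 then also passed in controls and Nampt+ samples, with r of 0.88 (exact permutation p = 0.00655, adjusted p = 0.0327). The part of cell composition in any difference between groups was not tested. Counting LOC689064, a beta-globin row outside the haemoglobin rule, gave an r of -0.93 for Cybb.

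**Figure D4:**
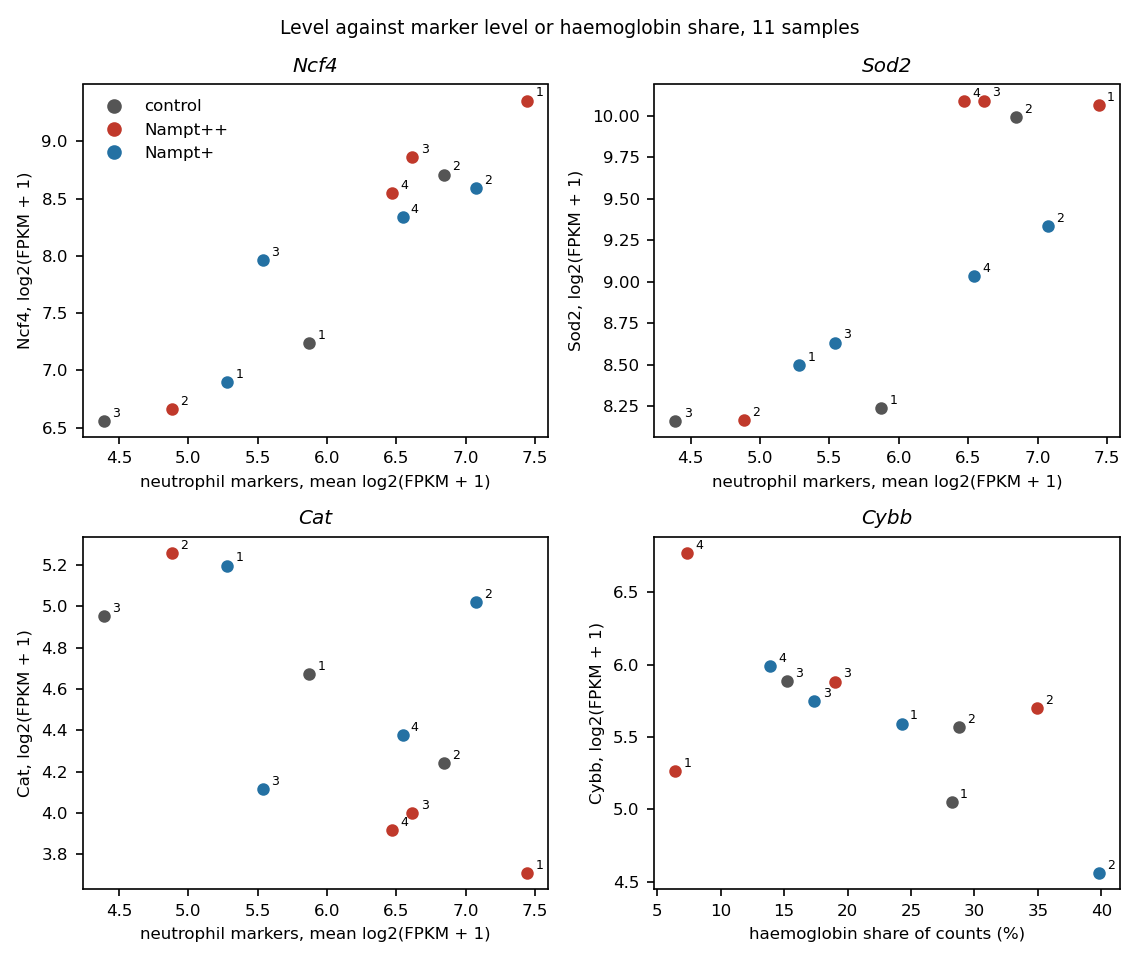
Level in log2(FPKM + 1) of Ncf4, Sod2 and Cat against the mean of the neutrophil markers, and of Cybb against the haemoglobin share of counts, with a point for each of the 11 samples coloured by group and numbered by replicate. Ncf4 climbs with the markers in all groups, and Nampt++ samples 1 and 4 lie apart in haemoglobin share for Cybb.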

How the data were processed

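RNA of WBCs from 3 controls and 4 CIA rats, sampled at Nampt++ and Nampt+ status, was analysed. The submitters' processing notes name cutadapt 1.9, HISAT2 2.0.4 and StringTie 1.3.4, without a role for each. The genome build and the counting method are not given in the sources used here, so the sharing of reads between near-identical genes is unknown. The deposited counts are whole reads per gene without normalization. The deposited FPKM values are scaled by the authors for transcript length and sample total, and 0.0001 there stands for 0.

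The test, run on genes whose FPKM averaged 1 or more in the comparison, was edgeR 4.0.16 (quasi-likelihood, TMM, no term for the rat), with Benjamini-Hochberg adjustment over all genes tested. The study's thresholds served for calls, namely an unadjusted p below 0.05 with a ratio of mean FPKM above 2 or below 0.5. DESeq2 1.42.0, limma 3.58.1 on log2(FPKM + 1) and exact permutation (smallest p 0.0286) were alternatives, with other scalings, filters and pseudocounts, all groups in one fit, the replicate number as a block (the rat between Nampt+ and Nampt++, only a shared number against controls) and each sample left out. Tests were tried on simulated data. The genes named are the 8, Rac1 and Rac2, the most abundant and every called gene of each list, and the 3 nearest in pattern to each of the 8. The 8 genes and the lists were chosen with earlier results of these data known, and 1 listed gene is not reported here. Haemoglobin counts follow 10 genes by the rule set at the start. LOC689064 was added afterwards as an alternative only.

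The samples of a rat are paired by the animal. Over genes, how far each sample lay from its group mean correlated within rats 1 to 4 at -0.27, -0.24, 0.23 and 0.09. No pair of libraries of a group agreed within counting error, so none was taken for a copy.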

Additional observations from a re-analysis of the deposited data

Results flagged for a closer look

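Of 20 groups of 4 values tested, chance would set about 1 in 20 apart, and 3 had a sample far from the other 3. Sod2 in Nampt++ sample 2 was 285.87 FPKM, where the other 3 Nampt++ samples lay between 1068 and 1089.7 FPKM. Cat in the same sample was 37.281 FPKM, where the other 3 lay between 12.1 and 15.0 FPKM. Cyba in Nampt+ sample 4 was 251.22 FPKM, where the other 3 Nampt+ samples lay between 156 and 171 FPKM. Nampt++ sample 2 had a haemoglobin share of 34.9% of counts and a neutrophil marker mean of 4.88, the lowest of its group, and their part in its values was not tested.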

How the results depend on the processing

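The direction and the call of the 8 genes were the same in 150 of 160 values for Nampt+ against Nampt++, in 142 of 144 for Nampt++ against controls and in 120 of 144 for Nampt+ against controls. The cause of the changes below was not tested unless the alternative's construction shows it. Leaving out a sample in turn called 0 to 1 of the 8 genes in the first comparison (Sod2 without Nampt+ sample 2) and 0 to 2 in the second (Ncf4 and Sod2 without control 2). It called 0 to 3 genes of the wider lists in the first (main 2), 0 to 5 in the second (main 0, the 5 without control 2 being Nadk, Nfe2l2, Prdx5, Slc7a11 and Txnrd1) and 0 to 1 in the third (Hmox1 without control 3).

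With a sample left out, log2 fold changes for Nampt+ against Nampt++ ran from -0.57 to 0.13 for Ncf1, -0.92 to 0.055 for Ncf4, -0.55 to 0.17 for Gpx1 and -0.23 to 0.084 for Rac2. For Nampt+ against controls they ran from -0.23 to 0.21 for Cybb, -0.21 to 0.53 for Cyba, -0.25 to 0.80 for Ncf1, -0.37 to 1.49 for Ncf4, -0.23 to 0.19 for Sod1, -0.73 to 1.09 for Sod2, -0.15 to 0.55 for Cat, -0.069 to 0.87 for Gpx1, -0.074 to 0.21 for Rac2 and -0.17 to 0.34 for Rac1.

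The 2 genes called in the wider lists became 1 at a mean FPKM of at least 10 and under limma with either pseudocount, and 0 with all groups in one fit, with the replicate block or by adjusted p. With no filter on FPKM 2 were called in Nampt++ against controls, Duoxa2 and Gpx2, whose mean levels over all samples were only 0.15 and 0.049 FPKM. The same setting called 3 in Nampt+ against Nampt++, with Duoxa2 beside Hmox1 and Txnrd1. With the replicate block, which against controls is a shared number and not an animal, log2 fold changes for Nampt+ against controls were 0.051 for Sod1 and 0.16 for Sod2. For Sod2 limma and exact permutation gave 0.0766 with a pseudocount of 1 and 0.0772 with 0.1. For Rac1 they gave -0.000283 with a pseudocount of 1 and -7.98e-06 with 0.1. The replicate block changed no call of the 8 genes.

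Without the 2 farthest samples, 0 relations to the haemoglobin share (main 1) and 0 to the neutrophil markers (main 4) passed. With so few samples a single relation could not pass the adjustment, so these counts do not show a loss. Against the haemoglobin share, r turned to 0.0195 for Gpx1 (controls and Nampt++), and to 0.57 for Cyba, -0.0415 for Ncf1 and -0.0782 for Cat (controls and Nampt+). Against the neutrophil markers it turned to 0.0757 for Sod1 (controls and Nampt++) and 0.21 for Cybb (controls and Nampt+). With FPKM rescaled to reads outside haemoglobin genes, r against the haemoglobin share turned to 0.42 for Gpx1 (controls and Nampt++) and 0.45 for Cyba (controls and Nampt+). Against the neutrophil markers it then turned to 0.0663 for Cat (controls and Nampt+).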

Other observations

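Gpx1 exceeded Cat by a ratio that averaged 66.6 (SD 32.1) at Nampt++ status, 36.3 (SD 5.09) at Nampt+ status and 32.7 (SD 15.7) in the 3 controls, with exact permutation p of 0.114 for Nampt+ against Nampt++ and 0.143 for Nampt++ against controls. The groups overlapped in this ratio.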
